A study of Mus musculus with 5 samples.

Results

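The genes described are 9 genes of the p53 and senescence pathways: Trp53, Mdm2, Cdkn1a, Ccng1, Gdf15, Phlda3, Eda2r, Cdkn2a and Cdkn2b. They were taken by gene name from the count tables of 5 mouse kidneys, which list 35478 genes, and all 9 were found. After a filter on low counts 16394 genes were left for testing, among them 8 of the 9. Cdkn2a did not pass. The compared groups were 2 Prdm16fl/fl and 3 Ksp-Cre/Prdm16fl/fl mice, with 1 RNA-seq library from each mouse, and both groups had unilateral ischemia-reperfusion injury (UIRI). In this model the pedicle of the left kidney was clamped for 35 minutes at 38.5°C, the right kidney was removed 10 days later, and the mice were killed 24 hours after that, on day 11. Both groups are homozygous for a Prdm16 allele with loxP sites around exon 9. The labels give the strain as C57BL/6J and the methods of the study as C57BL/6J;129. The methods describe male mice aged 7 to 8 weeks at surgery. The Ksp-Cre/Prdm16fl/fl mice also carry Cre recombinase under the promoter of Ksp-cadherin, a gene of tubular epithelial cells, so loss of Prdm16 and presence of the Cre transgene cannot be told apart here. Prdm16 outside the tubular epithelium is not a target of this Cre. No uninjured kidney was analysed here, so the values compare genotypes within injured kidneys. The labels name the tissue as kidney and the methods as kidney cortex.

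The protein p53, the product of Trp53, is a transcription factor that is stabilised by DNA damage and other stress and switches on genes that stop the cell cycle, repair DNA or kill the cell. Mdm2 is both a target of p53 and the ubiquitin ligase that removes it, so both proteins form a feedback loop. Senescent cells stay metabolically active but no longer divide; they usually hold high p21 (Cdkn1a) and, often later, high p16 (Cdkn2a), and secrete cytokines, proteases and protease inhibitors. In the kidney, tubular cells that stay arrested after injury are studied as a source of such secreted factors.

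Prdm16 itself was measured first. Levels are given as CPM, the counts of a library scaled to a total of 1000000 after adjustment with the TMM method. The Prdm16fl/fl kidneys, mice 1 and 3, held 25.3 and 20.02 CPM, and the Ksp-Cre/Prdm16fl/fl kidneys, in the order of mice 1, 2 and 3 that is kept throughout, held 17.1, 17.0 and 18.0 CPM. All 3 Ksp-Cre/Prdm16fl/fl values lay below both Prdm16fl/fl values, but the log2 fold change was -0.38 (SE 0.15) with an adjusted p of 0.259 in edgeR's quasi-likelihood test. The count covers the whole gene and not exon 9 alone.

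The regulatory sequence that p53 is best known for lies upstream of Cdkn1a, and it is shown here because Cdkn1a has the largest fold change among the 9 genes. RefSeq promoter windows (build GRCm38.p6, 250 bases before to 50 bases after a start site) were found for all 9 genes, 12 windows in all. They were searched on both strands for 2 adjacent copies of the p53 half-site consensus, a motif of 10 letters in which a C at its 4th and a G at its 7th letter are fixed, with at most 1 mismatch over the 20 letters. Such a pair lies in 22 of all 32851 mouse windows (0.067%), and among the 9 genes in 1 window each of Cdkn1a and Ccng1. The sequences below run 5′ to 3′ on the strand of the gene, 225 bases from the distal end of each window, and the capitals mark the matching pair.
Cdkn1a: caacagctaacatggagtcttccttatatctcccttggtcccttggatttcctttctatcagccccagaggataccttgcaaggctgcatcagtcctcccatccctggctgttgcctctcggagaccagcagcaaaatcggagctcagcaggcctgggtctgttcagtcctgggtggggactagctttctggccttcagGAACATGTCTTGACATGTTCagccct
Ccng1: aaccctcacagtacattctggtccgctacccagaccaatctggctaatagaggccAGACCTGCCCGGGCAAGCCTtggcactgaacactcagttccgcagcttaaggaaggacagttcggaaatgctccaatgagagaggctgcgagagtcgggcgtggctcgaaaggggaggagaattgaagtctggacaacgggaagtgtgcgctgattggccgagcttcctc
The Cdkn1a stretch is chr17:29090729-29090953, plus strand, and its pair (29090928-29090947) ends 31 bases before the upstream start site. The Ccng1 stretch is chr11:40755312-40755536, minus strand, and its pair (40755462-40755481) ends 175 bases before the start. At least 1 perfect half-site was present in windows of 4 of the 9 genes (Cdkn1a, Ccng1, Mdm2 and Trp53) and in 8.36% of all windows. The former counts genes, which hold 12 windows in all and were chosen for the p53 and senescence pathways. The latter is a share of windows. A match is a run of letters only, and a gene without a match may hold a site outside its window.

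The 5 libraries held 14939040 to 16425161 counted reads. They did not stand at equal distances: across the genes tested, Ksp-Cre/Prdm16fl/fl mice 1 and 2 correlated at r = 0.99 and the Prdm16fl/fl mice at 0.987, whereas Ksp-Cre/Prdm16fl/fl mouse 3 correlated at 0.952 and 0.955 with the other Ksp-Cre/Prdm16fl/fl mice. The log2 fold changes or adjusted p-values of the 8 genes tested are therefore also given without mouse 3. With 2 mice against 3 there are 10 ways to split the mice, so an exact permutation test of a single gene cannot give a p below 0.1. The tests below instead use the quasi-likelihood fit of edgeR, which shares the spread of all genes, and p-values are adjusted over all 16394 genes. The methods describe littermate controls, but the labels do not tie these mice to litters, so litter could not be included in the fit. The p-values set the difference between the genotypes against the spread of these 5 mice within their genotypes.

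Of the 8 genes tested, 0 were called under the rule that a log2 fold change reach 1 in either direction with an adjusted p under 0.05, which called 116 of all genes (0.708%), 13 higher (0.0793%) and 103 lower (0.628%) in Ksp-Cre/Prdm16fl/fl kidneys. By the adjusted p alone 0 of the 8 and 0.976% of all genes passed. DESeq2 called 1 of the 8, Gdf15, against 3.2% of the genes to which it gave an adjusted p (121 higher and 381 lower). At an unadjusted p under 0.05, 4 of the 8 passed in edgeR (Cdkn1a, Cdkn2b and Gdf15 with higher values, Ccng1 with lower values), against 18.8% of all genes. The same 4 genes had groups that did not overlap. In 3 of the 8 every Ksp-Cre/Prdm16fl/fl kidney lay above both Prdm16fl/fl kidneys, against 20.3% of all genes, and in 1 of the 8 every one lay below, against 21.3%. The log2 fold change was above 0 in 5 of the 8, against 54.0% of all genes, and its median was 0.25, beside 0.038 for all genes.

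**Figure D1:**
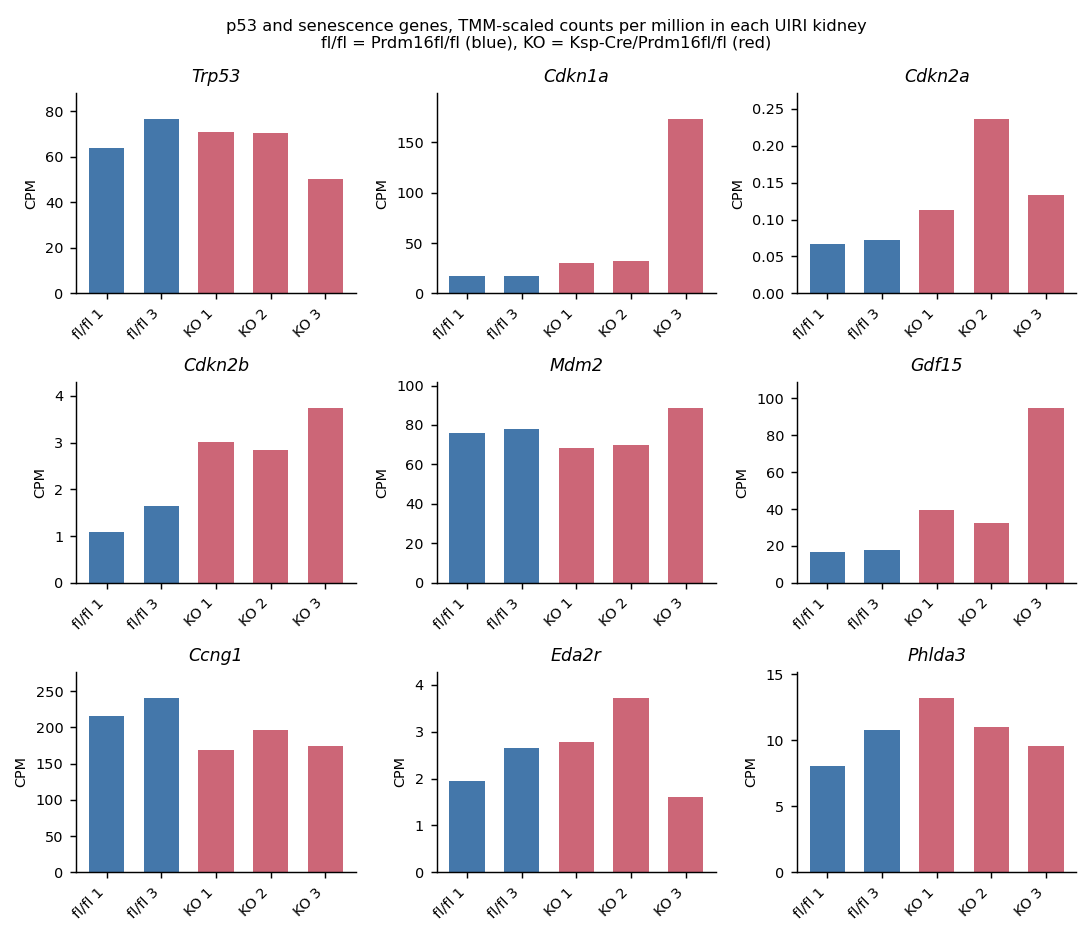
TMM-scaled CPM (vertical axis, linear, from 0, a separate scale for each gene) of the 9 genes in each kidney, with Prdm16fl/fl mice 1 and 3 in blue and Ksp-Cre/Prdm16fl/fl mice 1, 2 and 3 in red. Cdkn1a and Gdf15 are tallest in Ksp-Cre/Prdm16fl/fl mouse 3 (173.4 and 94.6 CPM), Cdkn2b is higher in all 3 Ksp-Cre/Prdm16fl/fl kidneys, and the Cdkn2a bars rest on 1 to 4 counts each.

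The transcription factor and its inhibitor did not separate by genotype. Trp53 (chromosome 11, 69471174 to 69482699, plus strand, positions as the files give them) stood at 64.0 and 76.6 CPM in the Prdm16fl/fl kidneys and at 70.8, 70.5 and 50.2 CPM in the Ksp-Cre/Prdm16fl/fl kidneys. The lowest value was that of Ksp-Cre/Prdm16fl/fl mouse 3, and the other Ksp-Cre/Prdm16fl/fl mice lay between the Prdm16fl/fl mice, so the groups overlapped. The means were 70.3 ± 8.9 CPM (SD, n = 2) and 63.9 ± 11.9 CPM (SD, n = 3), and the log2 fold change was -0.14 (SE 0.19, adjusted p = 0.733 in edgeR). Without mouse 3 it was 0.013. Wrap53 lies on the opposite strand, with 97 bases between its annotated start and that of Trp53 in the files. Its levels were 16.8 and 15.8 CPM against 13.8, 13.7 and 14.5 CPM, with a log2 fold change of -0.22 (SE 0.14, adjusted p = 0.457).

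Mdm2 (chromosome 10, 117524780 to 117546663, minus strand) was at 75.7 and 77.8 CPM in Prdm16fl/fl kidneys and at 68.2, 69.7 and 88.4 CPM in Ksp-Cre/Prdm16fl/fl kidneys. Mice 1 and 2 of the latter group lay below the Prdm16fl/fl pair and mouse 3 above it. The log2 fold change was -0.025 (SE 0.15, adjusted p = 0.943), and its sign turned in several alternatives, among them scaling by library size. Within its own genotype, mouse 3 was 1.27-fold above the higher of the other mice for Mdm2 and at 0.708 of the higher one for Trp53.

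Among the targets that arrest the cell cycle, Cdkn1a showed both the largest fold change and the largest spread. Cdkn1a encodes p21, which inhibits cyclin-dependent kinases and holds cells before S phase (chromosome 17, 29309953 to 29319696, plus strand). The Prdm16fl/fl kidneys held 258 and 246 counts, or 17.4 and 17.7 CPM. The Ksp-Cre/Prdm16fl/fl kidneys held 533, 543 and 2603 counts, or 30.3, 32.1 and 173.4 CPM. The groups did not overlap: mice 1 and 2 lay 0.79 and 0.87 above the Prdm16fl/fl mean on the log2 scale, and mouse 3 lay 3.30 above it.

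The means of Cdkn1a were 17.5 ± 0.18 CPM (SD, n = 2) and 78.6 ± 82.2 CPM (SD, n = 3), so the SD of the Ksp-Cre/Prdm16fl/fl group exceeded its mean. The log2 fold change was 2.16 (SE 0.86), with an adjusted p of 0.256 in edgeR. Without mouse 3 it was 0.83 (SE 0.11), with an adjusted p of 0.00252, which passes the p threshold and misses the fold line. Over all alternatives the adjusted p ran from 0.00252 to 0.782. Mouse 3 stood 5.4-fold above the nearer of mice 1 and 2, a gap reached by 45 of the 16394 genes (0.274%).

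The 3 genes whose values over the 5 kidneys were closest to those of Cdkn1a, by the root mean square (RMS) difference of log2 CPM centred on each gene's mean, were Fgg (0.13), Fga (0.13) and Prrg4 (0.14), of 13994 genes ranked with a median of 1.23. Fgg and Fga encode the gamma and alpha chains of fibrinogen, and Prrg4 a membrane protein with a Gla domain. Fgg was at 70.5 and 74.8 CPM in Prdm16fl/fl kidneys and at 146.6, 165.8 and 744.7 CPM in Ksp-Cre/Prdm16fl/fl kidneys. Fga ran from 82.1 to 931.2 CPM and Prrg4 from 25.3 to 235.7 CPM, each lowest in the Prdm16fl/fl pair and highest in Ksp-Cre/Prdm16fl/fl mouse 3. Without mouse 3 the log2 fold changes of Fgg, Fga and Prrg4 were 1.11, 0.98 and 0.98. These 3 genes were chosen for their likeness to Cdkn1a in these same kidneys, so the values follow largely from that choice. Of the other genes described here, Gdf15 was the closest to Cdkn1a, at rank 27 with an RMS difference of 0.41, followed by Cdkn2b at rank 403 and Mdm2 at rank 4184. Phlda3, Ccng1, Trp53 and Eda2r were farther from Cdkn1a than the median gene, with RMS differences of 1.24 to 1.47.

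**Figure D2:**
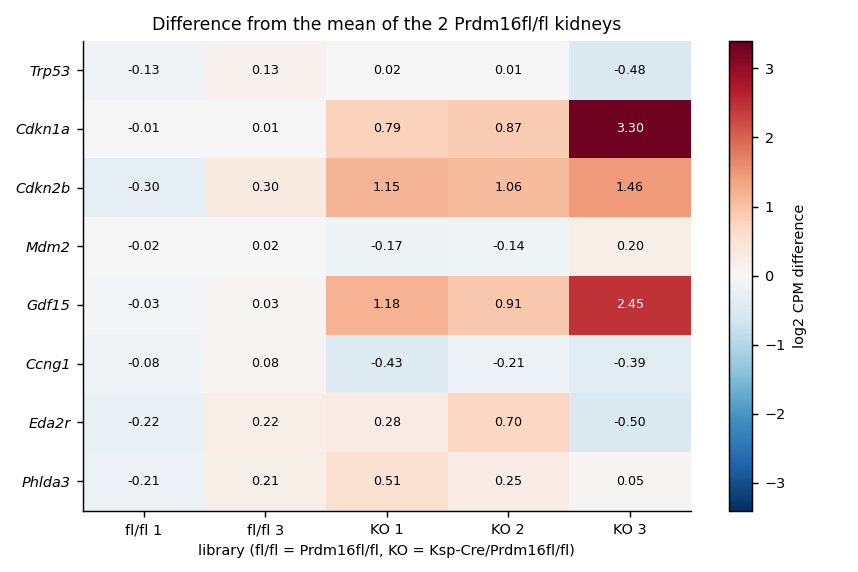
Log2 CPM difference of each kidney from the mean log2 CPM of the 2 Prdm16fl/fl kidneys, for the 8 genes tested (rows) and the 5 kidneys (columns), with red above and blue below that mean. Cdkn2b and Gdf15 are at 0.91 or more in all 3 Ksp-Cre/Prdm16fl/fl kidneys, whereas Cdkn1a is at 0.79 and 0.87 in mice 1 and 2 and at 3.30 in mouse 3.

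Ccng1, which encodes cyclin G1, a p53 target that recruits a phosphatase to Mdm2, stood lower instead (chromosome 11, 40639379 to 40646155, minus strand). It stood at 215.2 and 240.8 CPM in Prdm16fl/fl kidneys and at 169.1, 196.9 and 174 CPM in Ksp-Cre/Prdm16fl/fl kidneys. All 3 of the latter lay below the former pair. The means were 228 ± 18.1 CPM (SD, n = 2) and 180 ± 14.8 CPM (SD, n = 3), and the log2 fold change was -0.34 (SE 0.13), with an unadjusted p of 0.0399 and an adjusted p of 0.242. In the TPM deposited by the authors, where a library's total is taken after division by gene length, the groups overlapped, with 139.9 and 142 against 128.5, 149.5 and 117.9. Among the 8 genes tested, Cdkn1a and Ccng1, which hold the pair of half-sites, had the largest positive and the most negative log2 fold change. Neither gene was called. Without Ksp-Cre/Prdm16fl/fl mouse 3, Cdkn1a (0.83) stood below Cdkn2b (1.10) and Gdf15 (1.06). Whether the pair bears on these levels was not tested.

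Gdf15, a secreted member of the TGF-β superfamily that many stressed tissues release and that p53 can induce, was higher in every Ksp-Cre/Prdm16fl/fl kidney (chromosome 8, 71082043 to 71085106, minus strand). The Prdm16fl/fl kidneys were at 16.9 and 17.7 CPM. The Ksp-Cre/Prdm16fl/fl kidneys were at 39.4, 32.6 and 94.6 CPM. The means, 17.3 ± 0.57 CPM (SD, n = 2) and 55.5 ± 34 CPM (SD, n = 3), differed 3.21-fold, and mouse 3 was again the highest, 2.4-fold above the next.

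In edgeR the log2 fold change of Gdf15 was 1.68 (SE 0.49) with an unadjusted p of 0.0134 and an adjusted p of 0.153, which missed the threshold. DESeq2 gave 1.68 with an adjusted p of 0.00494 and called it. Without mouse 3 the edgeR value was 1.06 (SE 0.13) with an adjusted p of 0.00189, past both lines. The adjusted p ran from 0.00189 to 0.685 over the alternatives, and the sign was the same in each. A gap of mouse 3 as large as that for Gdf15 was found in 2.15% of all genes.

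Phlda3 and Eda2r, a pair of p53 targets with roles in cell survival and death, did not separate. Phlda3 encodes a small protein that competes with Akt for membrane lipids (chromosome 1, 135693823 to 135696872, plus strand). It was at 8.02 and 10.8 CPM in Prdm16fl/fl kidneys and at 13.2, 11.1 and 9.6 CPM in Ksp-Cre/Prdm16fl/fl kidneys, with mouse 3 between the Prdm16fl/fl mice. The log2 fold change was 0.27 (SE 0.23, adjusted p = 0.57).

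Eda2r encodes a receptor for the A2 form of ectodysplasin (chromosome X, 96377447 to 96420815, minus strand). It had 29 and 37 counts in Prdm16fl/fl kidneys and 49, 63 and 24 counts in Ksp-Cre/Prdm16fl/fl kidneys, or 1.96 and 2.65 against 2.78, 3.72 and 1.6 CPM. Mouse 3 was the lowest of the 5 kidneys and mouse 2 the highest. The log2 fold change was 0.23 (SE 0.42, adjusted p = 0.8), and it was -0.065 when mouse 2 was left out. Ksp-Cre/Prdm16fl/fl mouse 3, which had the highest Cdkn1a, Gdf15, Mdm2 and Cdkn2b, thus had the lowest Trp53 and Eda2r of the 5 kidneys.

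The INK4 genes lie side by side on chromosome 4, 11669 bases apart in the files, and encode inhibitors of CDK4 and CDK6. Cdkn2b encodes p15 and is known as a target of TGF-β signalling (89224526 to 89229269, minus strand). It had 16 and 23 counts in Prdm16fl/fl kidneys and 53, 48 and 56 counts in Ksp-Cre/Prdm16fl/fl kidneys, or 1.08 and 1.65 against 3.01, 2.83 and 3.73 CPM. The Ksp-Cre/Prdm16fl/fl values lay close together, all above the Prdm16fl/fl pair. The means were 1.36 ± 0.4 CPM (SD, n = 2) and 3.19 ± 0.48 CPM (SD, n = 3), a 2.34-fold difference.

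The log2 fold change of Cdkn2b was 1.22 (SE 0.34), with an unadjusted p of 0.0103 and an adjusted p of 0.135 in edgeR. It ranged from 0.94 to 1.56 when each mouse was left out in turn, the narrowest range among the 3 genes with higher values. Without mouse 3 it was 1.10 (SE 0.31) with an adjusted p of 0.0403, past both lines. Over all alternatives the adjusted p ran from 0.0403 to 0.547.

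Cdkn2a, the gene of p16 and of p19Arf, an inhibitor of Mdm2, was near the limit of detection (89192710 to 89212856, minus strand). It had 1 count in each Prdm16fl/fl kidney and 2, 4 and 2 counts in the Ksp-Cre/Prdm16fl/fl kidneys. All but 1 library were at or under the floor of 3 counts. The ratio of the summed counts, 8 against 2, was 2.32 per scaled read, with an exact 95% interval of 0.463 to 22.4 that covers counting error only, so a difference in Cdkn2a was not detectable at this depth. The files hold 1 count for the whole gene, so transcripts of p16 and p19Arf were not separated. None of the 9 genes shared annotated exon bases with another gene.

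**Figure D3:**
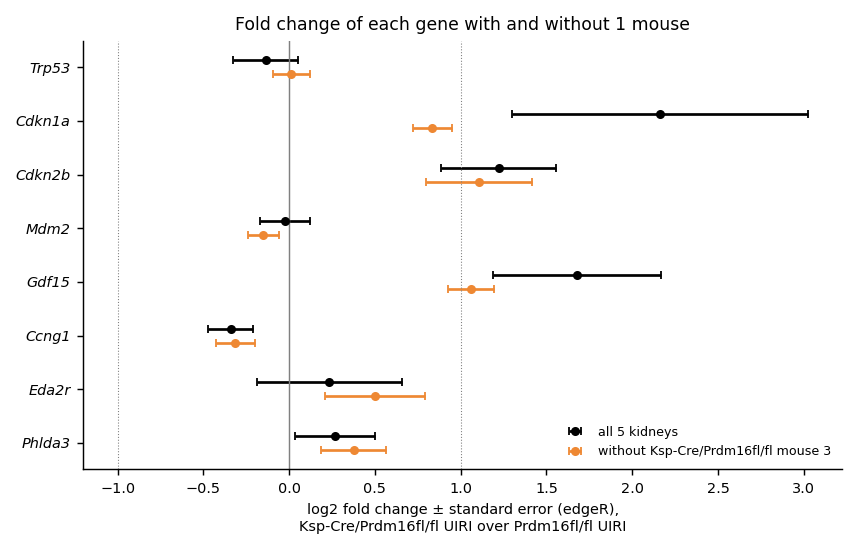
Log2 fold change of Ksp-Cre/Prdm16fl/fl over Prdm16fl/fl kidneys (horizontal axis, point) with its standard error (bar) from edgeR, for the 8 genes tested, with all 5 kidneys (black) and without Ksp-Cre/Prdm16fl/fl mouse 3 (orange); dotted lines mark a change of 1 in either direction. Cdkn1a moves from 2.16 to 0.83 and its bar shortens, Gdf15 moves from 1.68 to 1.06, and Cdkn2b stays near 1.1 to 1.22.

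Leaving out Ksp-Cre/Prdm16fl/fl mouse 3 made 2 of the 8 genes pass the call rule, Gdf15 and Cdkn2b, both higher, where 4.53% of all genes were called and 1.43% were called higher. Cdkn1a passed the adjusted p alone, as did 18.9% of all genes. Ccng1 stood at -0.31 with an adjusted p of 0.0906, and Trp53, Mdm2, Eda2r and Phlda3 had adjusted p-values of 0.2 to 0.948. With Ksp-Cre/Prdm16fl/fl mouse 1 or 2 omitted instead, edgeR called none of the 8 and 0 of all genes, so those omissions do not set the 8 apart.

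Per unit of gene length, the levels of the 9 genes spanned a wide range in Prdm16fl/fl kidneys. In TPM the order was Ccng1 (139.9 and 142), Trp53 (64.1 and 69.6), Mdm2 (23.4 and 21.8), Gdf15 (21 and 19.9), Cdkn1a (19.6 and 18.1), Phlda3 (12.6 and 15.3), Cdkn2b (1.78 and 2.47), Eda2r (0.771 and 0.95) and Cdkn2a (0.136 and 0.132). Mdm2, Gdf15 and Cdkn1a were neighbours within a few TPM of each other, which 2 mice do not separate. In Ksp-Cre/Prdm16fl/fl mouse 3, Cdkn1a was first at 203.7 TPM, ahead of Gdf15 at 122.2 and Ccng1 at 117.9. In mice 1 and 2, Ccng1 (128.5 and 149.5) and Trp53 (83 and 82.5) still led, with Gdf15 (57.1 and 47.1) and Cdkn1a (39.9 and 42.2) ahead of Mdm2 (24.7 and 25.2).

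The other genes of these pathways were taken from 8 lists with 156 genes, of which 148 were tested. In these lists 1 gene was called, 33 (22.3%) had an unadjusted p under 0.05, 40 (27.0%) had every Ksp-Cre/Prdm16fl/fl kidney above both Prdm16fl/fl kidneys and 18 (12.2%) had every one below. The median log2 fold change was 0.18. These values stand beside 0.708%, 18.8%, 20.3%, 21.3% and 0.038 for all genes. Single mice moved the counts: omitting Ksp-Cre/Prdm16fl/fl mouse 3 left 11 genes called (against 4.53% of all genes) and 61 (41.2%) at an unadjusted p under 0.05, against 34.2% of all genes. Without either of the Prdm16fl/fl mice 0 were called and 16 (10.7%) had such a p, against 10.3% of all genes without mouse 1 and 7.81% without mouse 3. For each list, the count and share at an unadjusted p under 0.05 are given without Ksp-Cre/Prdm16fl/fl mouse 1, 2 or 3. All genes stood at 15.5%, 14.2% and 34.2% in these fits. The lowest and highest median over the omissions of any single mouse are given too. Of all genes, 54.0% had a log2 fold change above 0 in the fit of all 5 kidneys.

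Of 17 p53 targets that act in arrest and DNA repair, 15 had a log2 fold change above 0 and 0 were called. Their median was 0.15, and 3 (17.6%, against 18.8% of all genes) had an unadjusted p under 0.05. Omitting Ksp-Cre/Prdm16fl/fl mouse 1, 2 or 3 gave 3 (17.6%), 5 (29.4%) and 8 (47.1%), against 15.5%, 14.2% and 34.2% of all genes. Over all omissions the median ran from 0.064 (without mouse 3 of that genotype) to 0.30 (without its mouse 2). Sesn1, a sestrin that restrains mTORC1, was at 25.1 and 26.5 CPM against 33.8, 34.6 and 35.6 CPM, with a log2 fold change of 0.42 (SE 0.11, adjusted p = 0.131). Btg2, an antiproliferative gene, was at 76.8 and 66.2 CPM against 99, 124 and 180 CPM, with a log2 fold change of 0.91 (SE 0.26, adjusted p = 0.152). Gtse1, which binds p53 in G2, had a log2 fold change of 0.78 (SE 0.30, adjusted p = 0.238). Btg2 was highest in Ksp-Cre/Prdm16fl/fl mouse 3, as Cdkn1a was, and stood at 0.64 (adjusted p = 0.0128) without that mouse.

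Of 15 tested targets listed under cell death, 1 was called. Dcxr fell from 117.4 and 140.1 CPM to 45, 42.2 and 42 CPM, a log2 fold change of -1.58 (SE 0.12, adjusted p = 0.0242 in edgeR). Dcxr encodes L-xylulose reductase, a carbonyl-reducing enzyme that is abundant in kidney tubules and is not itself an effector of death. It was still called by edgeR without Ksp-Cre/Prdm16fl/fl mouse 3 (adjusted p = 0.000275). Without mouse 1 or 2 of that genotype it was not called, but neither was any other gene. Of the whole list, 11 genes were above 0 and 4 below, with a median of 0.21. An unadjusted p under 0.05 was found for 5 (33.3%), against 18.8% of all genes. Omitting Ksp-Cre/Prdm16fl/fl mouse 1, 2 or 3 gave 4 (26.7%), 4 (26.7%) and 7 (46.7%), against 15.5%, 14.2% and 34.2% of all genes. Medians over all omissions were 0.14 to 0.30.

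Of 15 tested targets with metabolic and other roles, 0 were called (median 0.23, 10 above 0 and 5 below). An unadjusted p under 0.05 was found for 4 (26.7%), against 18.8% of all genes. Omitting Ksp-Cre/Prdm16fl/fl mouse 1, 2 or 3 gave 4 (28.6%), 3 (21.4%) and 6 (40%), against 15.5%, 14.2% and 34.2% of all genes. Medians over all omissions were 0.17 to 0.27. Serpine2, an inhibitor of serine proteases, was at 37.4 and 39.2 CPM against 106, 86.6 and 64.9 CPM, with a log2 fold change of 1.17 (SE 0.22, adjusted p = 0.0659). Rps27l, a ribosomal protein paralog, had a log2 fold change of -0.57 (SE 0.16, adjusted p = 0.131). Dglucy, a mitochondrial D-glutamate cyclase, was at 131.7 and 169.7 CPM against 70.3, 94.1 and 34.6 CPM, with a log2 fold change of -1.18 (SE 0.39, adjusted p = 0.187). Without Ksp-Cre/Prdm16fl/fl mouse 3 Dglucy stood at -0.87 (adjusted p = 0.0084).

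The regulators and partners of p53 had a median of 0.0064 over 18 tested genes, with 10 above 0, 8 below and 0 called. An unadjusted p under 0.05 was found for 1 (5.56%), against 18.8% of all genes. The median turned sign over the omissions, from -0.063 without Ksp-Cre/Prdm16fl/fl mouse 1 to 0.056 without mouse 3. Omitting mouse 1, 2 or 3 of that genotype gave 0, 0 and 2 (11.1%) genes at such a p, against 15.5%, 14.2% and 34.2%. The gene with such a p in the fit of all 5 kidneys was Daxx, a histone chaperone that binds Mdm2, at 0.32 (SE 0.13, adjusted p = 0.259). Of the 18 other CDK inhibitors and genes of the retinoblastoma pathway, 14 were above 0 and 0 were called (median 0.17). Over all omissions the median ran from 0.0375 (without Ksp-Cre/Prdm16fl/fl mouse 1) to 0.21. Omitting mouse 1, 2 or 3 of that genotype gave 2 (11.1%), 1 (5.56%) and 6 (33.3%) at an unadjusted p under 0.05. All genes stood at 15.5%, 14.2% and 34.2%. With all 5 kidneys 1 gene (5.56%) had such a p, against 18.8% of all genes. The gene in the fit of all 5 kidneys was Cdkn1c, which encodes p57 of the same family as p21, with 44.4 and 46.6 CPM against 25, 26.2 and 17.5 CPM and a log2 fold change of -0.99 (SE 0.19, adjusted p = 0.0721). Cdkn1c thus stood lower in the same kidneys in which Cdkn1a stood higher. Rb1, the retinoblastoma gene, was at -0.25 (SE 0.11, adjusted p = 0.278) and E2f3, an activator of S phase genes, at 0.31 (SE 0.13, adjusted p = 0.29).

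Polycomb proteins are known to keep the Cdkn2a and Cdkn2b locus silent. The list held 14 genes, 13 for such proteins and Kdm6b, a demethylase that removes their mark and opposes silencing. Of the 14, 12 were above 0, Kdm6b (0.41) among them, with 0 called and a median of 0.22. An unadjusted p under 0.05 was found for 3 (21.4%), against 18.8% of all genes. Omitting Ksp-Cre/Prdm16fl/fl mouse 1, 2 or 3 gave 3 (21.4%), 1 (7.14%) and 3 (21.4%), against 15.5%, 14.2% and 34.2% of all genes. Medians over all omissions were 0.13 (without mouse 3 of that genotype) to 0.30. Kdm2b, a demethylase of the variant complex, was at 0.43 (SE 0.13, adjusted p = 0.169) and Rnf2, the catalytic subunit that marks H2A, at 0.30 (SE 0.10, adjusted p = 0.204). Ring1, its paralog, was at -0.46 (SE 0.17, adjusted p = 0.226).

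The secretory factors had the highest median of the 8 lists, 0.44 over 38 tested genes, with 29 above 0 and 9 below. In edgeR 0 were called, and 10 with higher and 3 with lower values had an unadjusted p under 0.05. Together these were 34.2% of the list, against 18.8% of all genes. Genes called higher by DESeq2 included Mmp3, Plaur, Spp1 and Timp1. Spp1, which encodes osteopontin, was at 12280 and 13440 CPM against 27020, 28060 and 33770 CPM, with a log2 fold change of 1.20 (SE 0.24, adjusted p = 0.0741). Mmp14, a membrane metalloprotease, was at 69.8 and 69 CPM against 116.4, 107.3 and 97.4 CPM (0.63, SE 0.12, adjusted p = 0.0726). Vegfa, the endothelial growth factor, was lower in every Ksp-Cre/Prdm16fl/fl kidney, at 450.2 and 391.6 CPM against 246.5, 245.6 and 196.8 CPM (-0.87, SE 0.16, adjusted p = 0.061).

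By its median, this list did not follow Cdkn1a in Ksp-Cre/Prdm16fl/fl mouse 3, but its genes were split. Spp1, Plaur and Angptl4 were highest in that kidney, and Il1b, Cxcl10 and Ccl2 were lowest there, examples picked after their values were seen. The median log2 difference of the 38 secretory factors from the Prdm16fl/fl mean was 0.38 and 0.64 in mice 1 and 2 and -0.25 in mouse 3, which had the highest Cdkn1a. Omitting Ksp-Cre/Prdm16fl/fl mouse 1, 2 or 3 gave 12 (32.4%), 11 (29.7%) and 23 (60.5%) of these genes an unadjusted p under 0.05. All genes stood at 15.5%, 14.2% and 34.2% in the same fits. Over all omissions the median of the list ran from 0.30 to 0.56. Without mouse 3, 10 of the 148 tested genes of all 8 lists rose past the call rule, where 1.43% of all genes were called higher. Of these 10, 8 were secretory factors, among them Il6 (1.90) and Timp1 (1.52), which were chosen after their values were seen. Il6 had few counts, 5 and 2 against 16, 16 and 0. Of 13 other senescence markers 7 were above 0 and 6 below, with 0 called and a median of 0.018. An unadjusted p under 0.05 was found for 3 (23.1%), against 18.8% of all genes. Omitting Ksp-Cre/Prdm16fl/fl mouse 1, 2 or 3 gave 2 (15.4%), 2 (15.4%) and 6 (46.2%), against 15.5%, 14.2% and 34.2% of all genes. Medians over all omissions were -0.021 (without mouse 1 of that genotype) to 0.19 (without Prdm16fl/fl mouse 1). Glb1, the gene of the lysosomal enzyme read by senescence-associated β-galactosidase staining, was at 168.1 and 181.1 CPM against 119.3, 130 and 110.4 CPM, with a log2 fold change of -0.54 (SE 0.12, adjusted p = 0.097). Fuca1, another lysosomal hydrolase, was at -0.53 (SE 0.17, adjusted p = 0.174), and Bhlhe40, a p53-induced repressor of transcription, at 0.68 (SE 0.15, adjusted p = 0.0962).

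**Figure D4:**
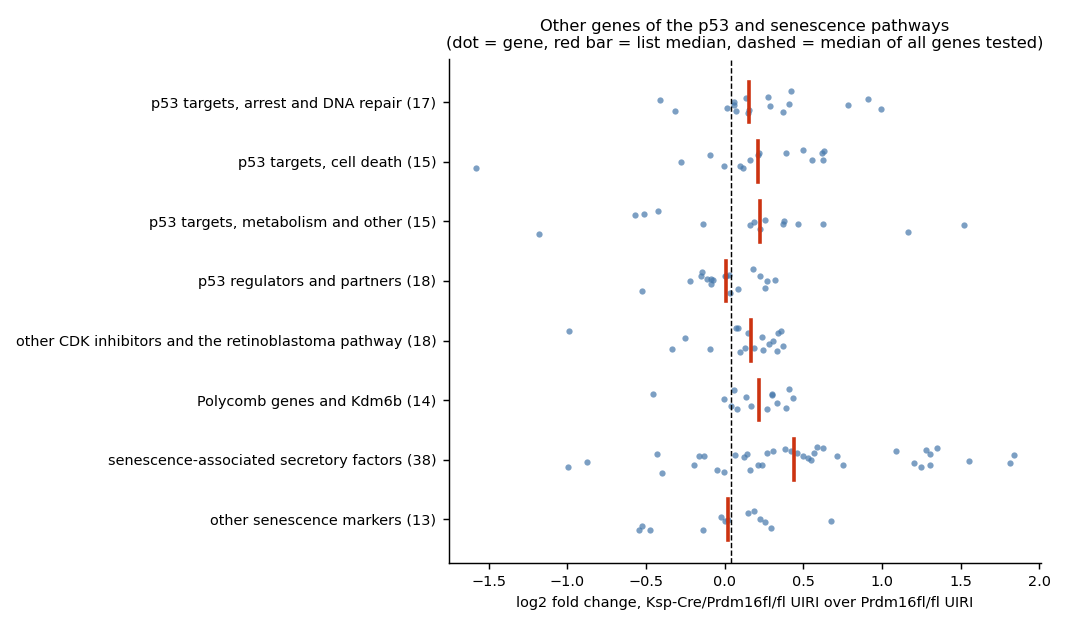
Log2 fold change of Ksp-Cre/Prdm16fl/fl over Prdm16fl/fl kidneys (horizontal axis) of each tested gene (point) in the 8 pathway lists, with the number of genes in brackets, the list median as a red bar and the median of all genes tested (0.038) as a dashed line. The secretory factors have a median of 0.44 and spread widely, while the regulators of p53 lie around 0.0064.

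Genes that mark cell types were read in the same kidneys, and their part in the values above was not tested. Counts of markers whose groups did not overlap stand beside 20.3% of all genes higher and 21.3% lower. In whole tissue, fewer cells of a type and less RNA per cell cannot be told apart. All 12 markers of the proximal tubule were detected and lower in every Ksp-Cre/Prdm16fl/fl kidney, with sums of 23240 and 28540 CPM against 6821, 8427 and 10010 CPM. Kap was the largest part of each sum, at 12510 and 18230 CPM against 2996, 4121 and 7403 CPM. The median log2 difference of the 12 markers from the Prdm16fl/fl mean was -1.37 and -1.18 in mice 1 and 2 and lowest in mouse 3, at -1.75. Markers of the distal tubule and collecting duct summed to 5406 to 5730 CPM against 2164 to 4384 CPM (7 of 9 lower without overlap) and podocyte markers to 504.6 to 661.3 against 366.8 to 407.8 CPM (3 of 4 lower). Genes of tubular injury, such as Havcr1 and Lcn2, summed to 2398 to 2981 against 4655 to 5541 CPM (7 of 8 higher), and those of fibroblasts and pericytes to 515.6 to 756.2 against 856.3 to 1258 CPM (5 of 8 higher).

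Of markers of cells that enter or divide, macrophage genes summed to 530.6 to 687 against 725.8 to 860.8 CPM, with 2 of 8 higher without overlap, near the share of all genes. Proliferation genes summed to 121.6 to 136.2 CPM against 218.5, 169.6 and 112.1 CPM (3 of 9, or 33.3%, higher), and their lowest sum was that of Ksp-Cre/Prdm16fl/fl mouse 3. Red blood cell genes summed to 6.67 and 10.8 CPM against 151.2, 150.3 and 40.5 CPM (5 of 5 higher). Sums for T cells (37.5 to 74.7 CPM), endothelium (229.4 to 362.2 CPM), B cells (2.27 to 5.81 CPM) and neutrophils (3.08 to 10.9 CPM) overlapped between the genotypes, and the neutrophil marker Ly6g had 3 counts or fewer in every kidney.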

How the data were processed

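RNA of 5 injured mouse kidneys was sequenced, 1 library per mouse, and grouped by the genotype in the labels. Raw read counts per gene were deposited by the authors (14939040 to 16425161 per library), with TPM and FPKM values that the authors scaled by gene length and library total. Recomputing both from the counts gave the deposited values within rounding. The submitters' processing notes name CASAVA, featureCounts 2.0.1, DESeq2 1.16.1 and hg38, a human build, without roles. The aligner, the mouse build and the use of strand are not given in the sources used here, so gene positions are as the files give them. They differ from GRCm38, and only promoter windows carry that build. Entries of 5 genes ran over several lines and were rejoined.

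Counts were filtered with filterByExpr, scaled with TMM and tested with the quasi-likelihood test of edgeR 4.0.16 (R 4.3.3) without covariates. Calls needed a p under 0.05 after Benjamini-Hochberg adjustment and a log2 fold change of 1 or more in either direction. CPM is per 1000000 counts after TMM scaling. Alternatives were DESeq2 1.42.0, its size factors in edgeR, library size scaling, no filter beyond 1 count, at least 10 counts in every library, each mouse left out, the mouse number as a block, an adjusted p alone, and limma 3.58.1 on log2 FPKM with a pseudocount of 1 or 0.1, where 2 libraries had an FPKM of 1 or more. A loess correction for length and GC (span 0.3, GC from GENCODE M21 transcripts for 15216 genes) was chosen after seeing the data.

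The 9 genes, the 8 pathway lists and the 12 cell type lists were chosen with earlier results of these data known. Named were all 9 genes, Wrap53 beside Trp53, the 3 genes most like Cdkn1a at a mean log2 CPM of 1 or more, and of each list the called genes or those with an adjusted p under 0.05 (at most 4), otherwise the 3 with the smallest unadjusted p. Not every gene of the lists is reported here. Python 3.11.15 with pandas 2.3.3 and matplotlib 3.10.9 handled tables and figures.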

Additional observations from a re-analysis of the deposited data

How the results depend on the processing

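The 116 calls over all genes became 502 with DESeq2 (121 higher), 287 without the filter, 46 with library size scaling (12 higher and 34 lower, beside 13 and 103), 55 and 43 with limma on log2(FPKM + 1) and log2(FPKM + 0.1), 40 with the length and GC correction, and 0 to 733 when each mouse was left out. The highest count was without Ksp-Cre/Prdm16fl/fl mouse 3. Each other omission gave 0, with 1330 to 2514 genes at an unadjusted p under 0.05 in fits of 4 kidneys. Among the 9 genes, DESeq2 called 1 and the omissions 0 to 2. In the pathway lists the single call became 8 with DESeq2, 3 without the filter, 2 with limma on log2(FPKM + 1), and 0 to 11 over the omissions. The cause of these moves was not tested.

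The labels do not say whether mice that share a number across the genotypes are paired. Deviations of same-numbered mice correlated at 0.0010 and -0.022 across genes, over 2 pairs. With 2 Prdm16fl/fl mice the deviations of 1 mirror those of the other, so these values cannot decide whether the mice are paired. With the number as a replicate block, 0 genes were called (2061 at an unadjusted p under 0.05), 0 of the 9 genes and 0 in the pathway lists.

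Of 110 values of single genes under the alternatives, 98 kept direction and side of the threshold, 3 passed it newly and 9 turned sign. Mdm2 stood at 0.080 with library size scaling, 0.017 with the block, 0.070 and 0.076 in the limma fits, and -0.15 to 0.044 over the omissions. Eda2r stood at -0.097 with the block and -0.065 to 0.50 over the omissions, and Trp53 at -0.26 to 0.013. Library size scaling moved the median of all genes from 0.038 to 0.15, above its value for Mdm2. Cdkn1a ranged from 0.83 to 2.55, Gdf15 from 1.06 to 1.95 and Ccng1 from -0.42 to -0.26 over the omissions. Low counts limit Cdkn2a, which was tested only with DESeq2 and without the filter, Eda2r, which was not in the limma fits, and Cdkn2b.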

Other observations

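H2ax, the histone gene whose phosphorylated protein marks DNA breaks, is listed at 0 in all 5 kidneys. In the files its 1 exon of 1363 bases lies wholly (100%) within exons of Dpagt1 on the same strand, which had 428 to 582 counts per kidney, and it therefore gives no reading here. Ptprv, a further p53 target of the lists, is not analysed here.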
